A study of Homo sapiens with 8 samples.

Results

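The 251 regions described here are gene starts at which open chromatin was detected in every stiff-matrix library and in exactly 1 soft-matrix library. Merging all peaks that shared 1 bp or more over 8 lists gave 102366 regions, of which 19185 had their centre within 1 kb of an annotated transcription start and are called promoter regions. Members were the promoter regions with a peak in all 4 stiff lists and in exactly 1 of the 4 soft lists. They made up 1.90% of the 13215 promoter regions with a peak in all 4 stiff lists, against 4.58% when the same rule was applied to all 43488 regions with a peak in all 4 stiff lists, wherever they lay. The members were thus selected on the presence of peaks in the stiff and soft lists of the same libraries, and every stiff and soft value below is a description and was not tested.

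The lists came from ATAC-seq, which maps open chromatin by transposase insertion, in wild-type LX-2 cells, a hepatic stellate cell line of human origin that has been immortalised. Cells were kept on polyacrylamide hydrogels of about 2 kPa (soft) or about 40 kPa (stiff) for 2 days (D2) or 4 days (D4), with no other agent in any group. Each stiffness and day (D2 soft, D4 soft, D2 stiff, D4 stiff) had 2 replicate libraries, which makes 4 groups. The study's methods call the sequencing replicates biological, the labels do not say how they were separated, and 1 immortalised line stands for the cell type.

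A promoter is the stretch of DNA around a transcription start where RNA polymerase and general transcription factors assemble. Promoters of broadly used genes are often rich in CpG dinucleotides and stay free of nucleosomes in most cell types, whereas promoters of genes used in few cell types tend to be poorer in CpG and to open with activation. Hepatic stellate cells turn into matrix-producing myofibroblasts in injured liver, and a stiff matrix is one of the stimuli known to favour that change. A peak is a place where transposase insertions exceeded the local background, so its absence from a list is a missed threshold and not a measurement of closed chromatin.

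The sequences below show what some of these regions look like. DKK2 and LSMEM1 had high percentiles in stiff and soft lists alike, MYL2 had one of the lowest p-values between days, TNS3 had one of the lowest soft percentiles relative to its stiff percentiles, and COL6A2 and ITGA5 belong to the matrix and integrin lists. Except for ITGA5, each is the part outside annotated exons of a window around the summit of the best-ranked stiff peak. All are from GRCh37 (hg19), read 5′ to 3′ on the strand of the gene. For ITGA5 the longest stretch of that window outside annotated exons was only 12 bases, chr12:54813051-54813062. The bases around 1 motif are shown there instead, and they run into an annotated exon. Capitals mark motifs: TGAGTCA is an AP-1 motif, CATTCC is the TEAD motif GGAATG read on the other strand, GGGCGG is a GC box, and TATAAA is the core of the TATA box.
DKK2, chr4:108204964-108205018, minus strand: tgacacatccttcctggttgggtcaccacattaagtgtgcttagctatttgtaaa
LSMEM1, chr7:112122022-112122142, plus strand: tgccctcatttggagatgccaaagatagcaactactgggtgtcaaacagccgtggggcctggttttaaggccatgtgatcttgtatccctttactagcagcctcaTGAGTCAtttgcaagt
MYL2, chr12:111359248-111359368, minus strand: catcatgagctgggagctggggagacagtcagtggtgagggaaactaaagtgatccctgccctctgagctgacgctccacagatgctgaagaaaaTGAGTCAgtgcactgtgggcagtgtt
TNS3, chr7:47419635-47419755, minus strand: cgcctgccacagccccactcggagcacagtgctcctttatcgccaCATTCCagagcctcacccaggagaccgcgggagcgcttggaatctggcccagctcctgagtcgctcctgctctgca
COL6A2, chr21:47517940-47518025, plus strand: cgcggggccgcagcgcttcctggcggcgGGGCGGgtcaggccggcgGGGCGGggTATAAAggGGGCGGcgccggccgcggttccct
ITGA5, chr12:54813039-54813067, minus strand: cctccccgcgtTGAGTCAttcgcctctgg

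The MYL2 and ITGA5 windows lay at the start of the gene, with the centre of the AP-1 motif 23 and 3 bases upstream of it, respectively. The LSMEM1 motif lay 1084 bases downstream of the nearest LSMEM1 start and the TNS3 motif 1031 bases downstream of a TNS3 start, outside annotated exons in both cases. The COL6A2 window ran up to an annotated exon and held 3 GC boxes and a TATA box in 86 bases, with a GC content of 82.6%. The DKK2 window had a GC content of 41.8% and its 55 printed bases held no motif of those searched, although a GC box lay elsewhere within 100 bp of the summit. These are matches of letters, not evidence of binding.

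Depth differed between libraries and bears on the rule itself. The lists held 29789 to 72840 peaks, and the depth estimated from them ran from 0.780 fragments per kb in D2 soft replicate 1 to 3.15 in D4 stiff replicate 1. D2 soft replicate 1 stood apart as the shortest and least deep list, while the other soft lists were at 2.08 to 2.72 and the stiff lists at 2.19 to 3.15 fragments per kb. Of 10 stellate cell and myofibroblast markers, 5 had a promoter region in all 8 lists (ACTA2, COL1A1, PDGFRB, LOX and TIMP1) and 3 in none (COL3A1, DES and LRAT). In any one library, 0 to 2 of 10 hepatocyte, 0 to 2 of 5 cholangiocyte, 0 to 2 of 6 endothelial and 1 to 2 of 7 leukocyte markers had a promoter region, and ALB, PECAM1 and PTPRC had one in none, whereas the leukocyte marker CD68 had one in all 8.

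The members sat at the sparse end of a gradient. Among promoter regions with a peak in all 4 stiff lists, 69 had a peak in 0 soft lists, 251 in 1, 660 in 2, 3049 in 3 and 9186 in all 4. The opposite pattern, a peak in all 4 soft lists and exactly 1 stiff list, was met by 0 promoter regions, and 16 had all 4 soft and 2 stiff peaks. That 0 changed with the lists used. Without D2 soft replicate 1, 30 promoter regions had peaks in all remaining soft lists and 1 stiff list. The regions that met the members' rule then numbered 273 and overlapped 248 of the 251. Leaving out a list also loosens the opposite rule. Its count was 6 without D2 soft replicate 2, 0 without either D4 soft replicate and 3 to 13 without 1 stiff list. With all lists cut to equal length it was 45. The source of the 0 was not tested.

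**Figure D1:**
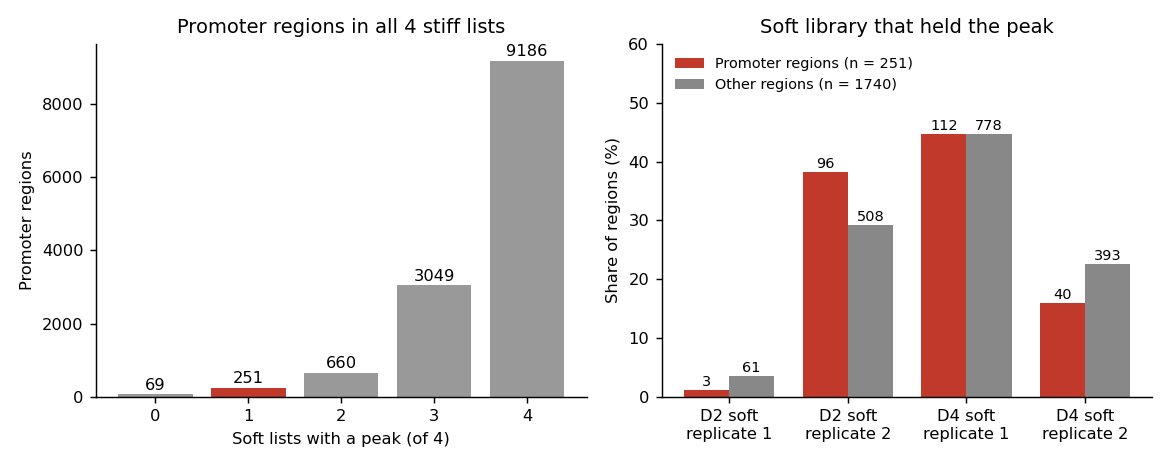
Left, number of promoter regions with a peak in all 4 stiff lists (y axis) by the number of soft lists with a peak (x axis), members in red. Right, share in percent of the 251 member promoter regions (red) and of the 1740 regions of the same pattern away from promoters (grey) whose soft peak was in each soft library, with the number of regions above each bar. D4 soft replicate 1 held 112 member peaks and D2 soft replicate 1 only 3.

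Few members remained when the lists were cut to equal length. When every list was cut to its best peaks by p-value, as many as the shortest list holds, 59 promoter regions met the rule and 45 met its opposite, and only 3 of the 251 members overlapped one of the 59. Those were DKK2 and the starts of 2 genes without a symbol, named here after these values were seen. By fold enrichment the median position of the members was 45708 to 51217 in the stiff lists, past the cut at 29789. By p-value, the measure the cut used, the members' median stiff percentile was 26.9, beside 25.5 by fold enrichment. The cut itself removes the weaker peaks of the longer lists, so it does not separate list length from peak strength. Without D2 soft replicate 1 and with the other 7 lists cut to equal length, 158 regions met the rule against 75 for its opposite, and 112 of the members overlapped them. This cut to 7 lists was chosen after seeing the data. With a peak required to cover at least 50% of the region, 349 regions met the rule and 60 of the members overlapped them. A threshold of q up to 0.01 left 255 regions, which overlapped 239 of the members. The part of depth in which regions are members was not tested.

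**Figure D2:**
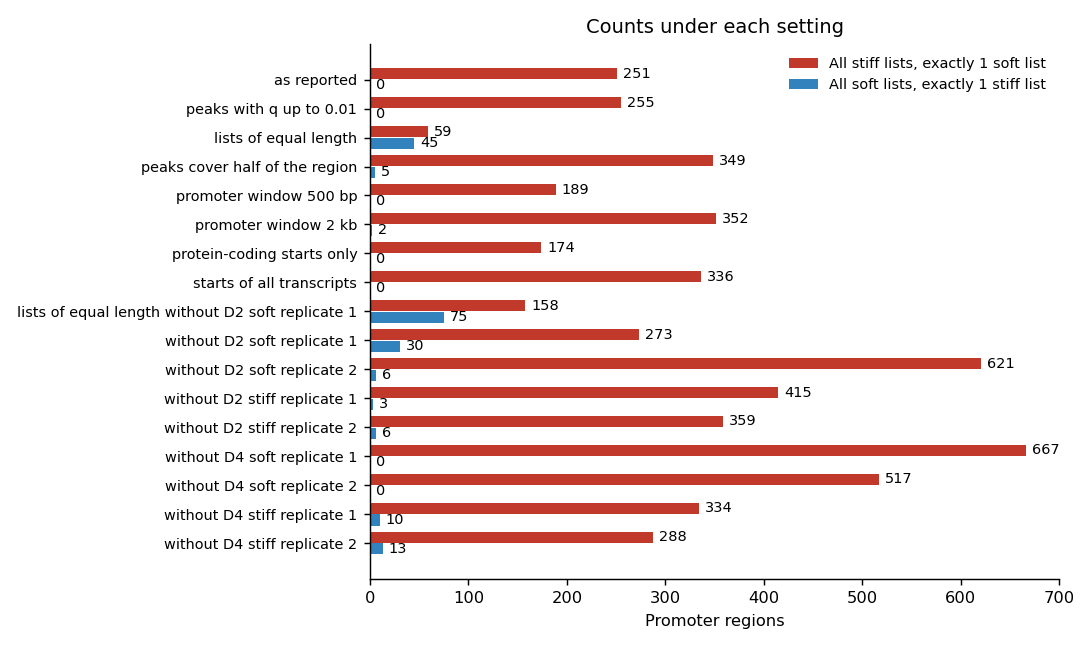
Number of promoter regions (x axis) in all stiff lists and exactly 1 soft list (red) and in all soft lists and exactly 1 stiff list (blue) as reported and under each other setting (y axis). The red count is at least 174 in all settings except the lists of equal length, where it is 59 over 8 lists and 158 over 7 lists.

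The soft peak was unevenly spread over the soft libraries. D4 soft replicate 1 held it at 112 members (44.6%), D2 soft replicate 2 at 96 (38.2%), D4 soft replicate 2 at 40 (15.9%) and D2 soft replicate 1 at 3 (1.20%). This order was not that of estimated depth or of all peaks. D4 soft replicate 2 had 2.72 fragments per kb and 56362 peaks. D4 soft replicate 1 had 2.69 and 63272, and D2 soft replicate 2 had 2.08 and 55754. The number of promoter regions per list did have the members' order. It was 15212 in D4 soft replicate 1, 14553 in D2 soft replicate 2, 14241 in D4 soft replicate 2 and 9778 in D2 soft replicate 1. The source of the uneven spread was not tested. Replicates of 1 group differed widely, with 3 and 96 in D2 soft and 112 and 40 in D4 soft. At the 1740 regions of the same pattern away from promoters the shares were 44.7% in D4 soft replicate 1, 29.2% in D2 soft replicate 2, 22.6% in D4 soft replicate 2 and 3.51% in D2 soft replicate 1, which is the same order. Leaving out a soft list opened the rule to regions with 1 peak among the remaining 3, and the count rose to 667 without D4 soft replicate 1, 621 without D2 soft replicate 2 and 517 without D4 soft replicate 2. Leaving out D2 stiff replicate 1, the only stiff list whose removal moved it by more than 1.5 times, gave 415.

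Member peaks were weak in the lists that held them. The percentile of a peak is its place within its own list when peaks are ordered by fold enrichment, the pileup at the summit over the local background, with 100 for the strongest peak. Percentiles are used because fold enrichment is comparable only within a list. The median percentile of the members was 22.9 and 22.1 in D2 stiff replicates 1 and 2, and 26.1 and 29.7 in D4 stiff replicates 1 and 2, and over all 4 lists it was 25.5. At promoter regions with a peak in all 8 lists the medians were 71.3 to 76.3. In each stiff list the members' median was below that of promoter regions with 2 soft peaks, which were at 27.9 to 36.96, and the members overlapped the regions with 0 soft peaks, which were at 17.6 to 25.5. In a bulk library a region open in fewer cells and one less open in every cell cannot be told apart.

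**Figure D3:**
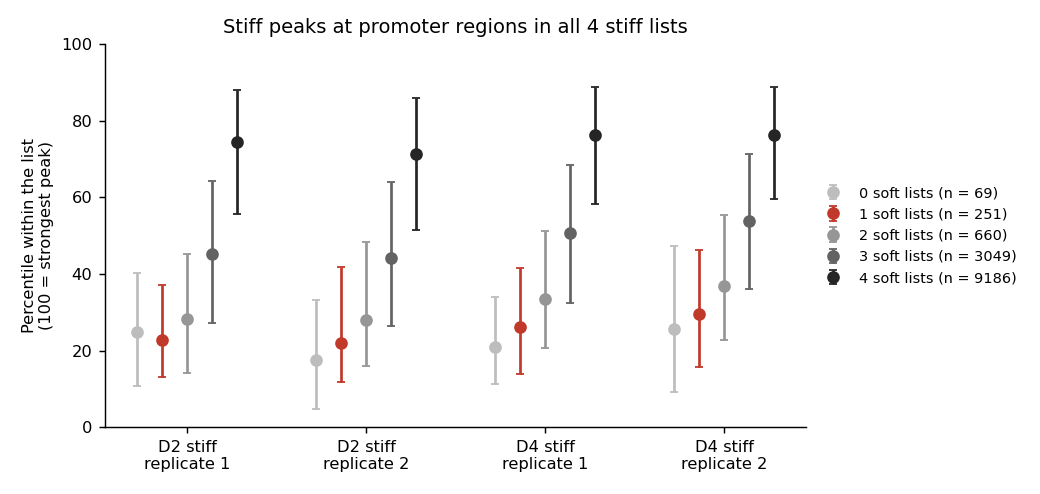
Percentile of the stiff peak within its list (y axis, 100 is the strongest peak) in each stiff library (x axis) at promoter regions with a peak in all 4 stiff lists, by the number of soft lists with a peak. Points are medians and bars run from the lower to the upper quartile. The members, in red, have medians of 22.1 to 29.7, and regions with 4 soft peaks have medians of 71.3 to 76.3.

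The soft peak stood at about the same place in its own list, with a median percentile of 22.0. By library the median was 25.1 in D2 soft replicate 1 (3 members), 17.5 in D2 soft replicate 2, 26.2 in D4 soft replicate 1 and 23.5 in D4 soft replicate 2. The median pileup at the summit was 10 fragments for soft peaks and 13 for stiff peaks. At 67 members all 4 stiff percentiles were above the soft one, at 63 members 3 were, at 42 members 2, at 44 members 1, and at 35 members the soft peak ranked above all 4 stiff peaks. The mean stiff percentile was over 50 at 33 members and the soft percentile at 35. Lists differ in length, so 1 percentile stands for different positions in them, and counts by position differ. Counted from the top of each list, all 4 stiff positions were better than the soft one at 20 members, 3 at 47, 2 at 60, 1 at 63 and none at 61. The order of soft and stiff at a member thus depends on the scale, and the percentiles below carry that limit.

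**Figure D4:**
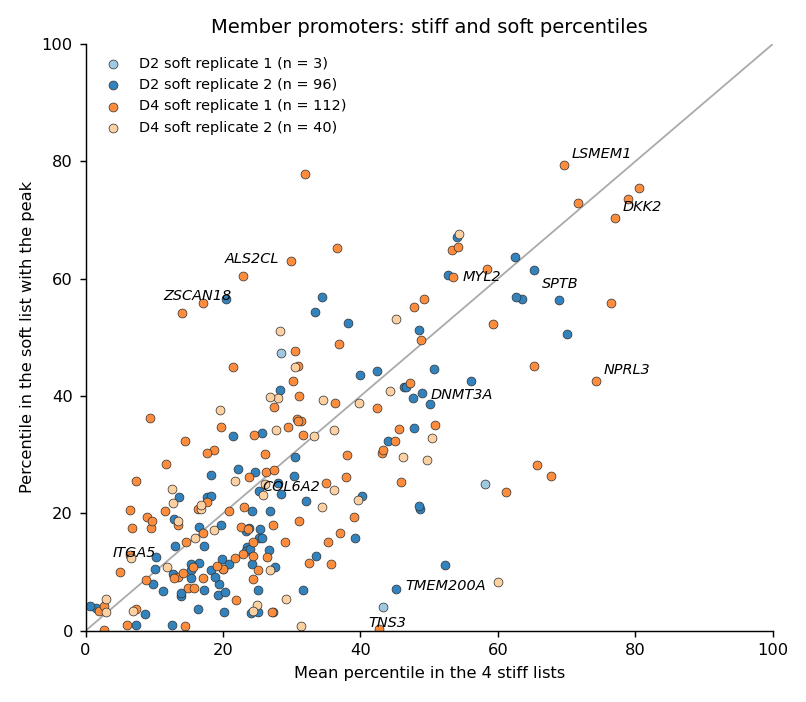
Percentile of the soft peak within the list that holds it (y axis) against the mean percentile of the 4 stiff peaks (x axis), 1 point per member, coloured by soft library, with the line of equality. Points lie on both sides of the line, from ZSCAN18 well above it to TNS3 and TMEM200A well below it.

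The strongest members with a protein-coding gene were led by DKK2, which encodes a secreted modulator of Wnt signalling. Its percentiles were 79.4 and 84.3 in the D2 stiff replicates, 71.3 and 73.3 in the D4 stiff replicates, and 70.3 in D4 soft replicate 1. By percentile the soft value was the lowest of the 5, but by only 0.968. NPRL3, a subunit of the GATOR1 complex that restrains mTORC1, had 82.7 and 80.1 in D2 stiff, 60.7 and 73.7 in D4 stiff, and 42.6 in D4 soft replicate 1. Its soft peak was well below all 4 stiff peaks. LSMEM1, which encodes a membrane protein, went the other way, with 75.2 and 68.6 in D2 stiff, 76.8 and 58.1 in D4 stiff, and 79.4 in D4 soft replicate 1, the highest soft percentile of any member.

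SPTB, the beta-spectrin of the red cell membrane skeleton, had 49.0 and 71.6 in D2 stiff, 60.8 and 79.9 in D4 stiff, and 61.5 in D2 soft replicate 2. The start shared by PIGG, which acts in the synthesis of glycosylphosphatidylinositol anchors, and ZNF721 had 63.4 and 61.7 in D2 stiff, 56.5 and 79.2 in D4 stiff, and 45.2 in D4 soft replicate 1. The soft value lay inside the stiff range at SPTB and below it at PIGG. EPHX1, which encodes microsomal epoxide hydrolase, had 45.001 and 44.5 in D2 stiff, 63.0 and 71.9 in D4 stiff, and 42.5 in D2 soft replicate 2. PRCD, a protein of photoreceptor discs, ranged from 47.9 to 72.6 in the stiff lists with 52.4 in D4 soft replicate 1, and CPA6, a secreted carboxypeptidase, ranged from 40.4 to 67.4 with 65.5 in the same soft list. PEX11A, which takes part in the division of peroxisomes and shares its region with WDR93, ranged from 21.3 to 80.5 in the stiff lists with 60.6 in D2 soft replicate 2. In the last 3 genes the soft value lay inside the stiff range.

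D2 soft replicate 1, the shallow library, held the peak at NOC2L, TNS3 and the processed pseudogene LIMK2P1, the last named only because a count of 3 is given. At NOC2L, which encodes an inhibitor of histone acetyltransferases, the soft percentile of 47.4 was above the stiff values of 21.4, 16.1, 35.2 and 41.1. At TNS3, which encodes the focal adhesion protein tensin-3, the soft percentile of 4.01 was far below the stiff values of 46.3 and 32.8 in D2 and 43.3 and 50.8 in D4, and the soft summit held 4 fragments. By position in the list the order was the other way, at 28580 in the short soft list and 31792 to 42774 in the stiff lists. LIMK2P1 had 25.1 in the soft list and 42.1 to 68.9 in the stiff lists.

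In D2 soft replicate 2 the highest soft percentiles after SPTB and PEX11A belonged to KCND1, a voltage-gated potassium channel subunit, with 56.9 against 51.3 and 29.2 in D2 stiff and 23.1 and 33.9 in D4 stiff. In D4 soft replicate 2 they belonged to TSBP1, with 51.1 against 15.6 to 45.9 in the stiff lists, to ZNF382, a zinc finger repressor, with 44.9 against 13.3 to 49.9, and to ANKS6, a protein of the primary cilium, with 40.8 against 21.8 to 62.8. The soft peak was above every stiff peak at KCND1 and TSBP1, and inside the stiff range at ZNF382 and ANKS6.

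The next 5 genes were chosen because the soft peak led the best stiff peak by most, a choice that itself favours low stiff percentiles. ZSCAN18, which encodes a zinc finger protein, had 18.7 and 14.2 in D2 stiff, 11.2 and 11.8 in D4 stiff, and 54.2 in D4 soft replicate 1. ARL9, a small GTPase of the ARF family, had 28.6 and 11.3 in D2 stiff, 10.2 and 18.6 in D4 stiff, and 55.9 in the same soft list. The order of soft and stiff is therefore no finding at any of the 5, and 3 soft lists had no peak at ZSCAN18 or at ARL9. ALS2CL had 60.5 in D4 soft replicate 1 against 8.01 to 39.7 in the stiff lists, SHF, an adaptor protein with an SH2 domain, had 36.3 against 2.99 to 18.2, and FAM120AOS, which shares its region with FAM120A on the opposite strand, had 25.6 against 3.85 to 13.1. All 5 of these genes had their soft peak in D4 soft replicate 1.

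The soft peak lagged the lowest stiff peak by most at TNS3, TMEM200A, TPTEP2-CSNK1E, NPRL3 and POFUT2. TMEM200A, which encodes a membrane protein, had 29.9 and 67.2 in D2 stiff, 41.4 and 42.4 in D4 stiff, and 7.18 in D2 soft replicate 2. TPTEP2-CSNK1E, a readthrough gene that includes casein kinase 1 epsilon, had 36.1 and 19.4 in D2 stiff, 41.5 and 28.2 in D4 stiff, and 0.749 in D4 soft replicate 2. POFUT2, which adds O-fucose to proteins in the endoplasmic reticulum, had 22.0 to 40.7 in the stiff lists and 6.87 in D2 soft replicate 2. The 5 soft peaks came from all 4 soft libraries, with 4 to 11 fragments at the summit.

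Of 12 gene lists related to stellate cell activation and mechanics, 6 of 327 genes (1.83%) had a member region, beside 180 of 20136 protein-coding genes (0.894%). Counted over genes with any promoter region the shares were 1.99% and 1.36%. The 6 genes were CDC42 and TPM4, ITGA5 of the integrin and focal adhesion list (1 of 30), COL6A2 of the matrix list (1 of 26), and DNMT3A and KMT2C of the chromatin regulators (2 of 35). The lists for AP-1 factors (0 of 21), SRF, MRTF and early response (0 of 20), YAP, TEAD and Hippo (0 of 25), matrix remodelling enzymes (0 of 28), TGF-beta and PDGF (0 of 27), the MAPK pathway (0 of 26), inflammation and NF-kB (0 of 27) and the cell cycle (0 of 30) held none. With so few genes per list, nothing is read from the order of the lists.

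ITGA5 encodes the alpha-5 subunit of the fibronectin receptor. Its percentiles were low throughout, at 16.0 and 2.86 in D2 stiff, 0.790 and 0.358 in D4 stiff, and 10.1 in D4 soft replicate 1. The summit pileup was 14, 16, 24 and 17 fragments in the stiff libraries and 22 in the soft library, above the members' medians, so that its fold enrichment was low at an above-median pileup. COL6A2, which encodes a chain of type VI collagen, had 19.97 and 15.9 in D2 stiff, 28.9 and 34.0 in D4 stiff, and 27.0 in D2 soft replicate 2, a soft value inside the stiff range.

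TPM4, a tropomyosin that stabilises actin filaments, had 16.1 and 24.7 in D2 stiff, 8.16 and 16.3 in D4 stiff, and 20.7 in D4 soft replicate 1. CDC42, a small GTPase that drives filopodia, had 30.4 and 16.6 in D2 stiff, 3.16 and 30.1 in D4 stiff, and 10.6 in D4 soft replicate 1. Both genes had another promoter region with a peak in all 8 lists, and at CDC42 each of the 3 soft libraries without the member peak had another peak within 1 kb of the start. The absence of a peak at these 2 regions was therefore not the absence of any open start of the gene.

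DNMT3A, a de novo DNA methyltransferase, had 68.2 and 45.7 in D2 stiff, 22.5 and 59.5 in D4 stiff, and 40.5 in D2 soft replicate 2. It had 2 other promoter regions, neither of them with a peak in all 8 lists. KMT2C, a histone H3 lysine 4 methyltransferase, had 55.2 and 36.98 in D2 stiff, 14.6 and 36.4 in D4 stiff, and 11.4 in D4 soft replicate 1. Here the soft value was below all 4 stiff values, as it was at no other gene of the 6.

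Members and promoters open in all 8 lists differed in position and annotation. Of the 251 regions, 174 (69.3%) lay at a protein-coding start, 48 led with a long non-coding RNA, and 176 (70.1%) lay at the canonical start of a gene. At promoter regions in all 8 lists, 85.6% lay at a protein-coding and 90.9% at a canonical start. Starts on both strands were found at 34 members (13.5%) against 32.5% of the regions in all 8 lists. The neighbouring classes were closer to the members, with starts on both strands at 10.1% of regions with 0 soft peaks and 14.4% with 2, and protein-coding starts at 73.9% and 72.0%. The median width of a merged member region was 662 bp and the median distance from its centre to the nearest start was 215 bp, against 1152 bp and 124 bp for regions in all 8 lists. A wider region arises where more lists contribute peaks, so the widths are not independent of the rule.

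Overlap of the peaks within a member is largely set by the merging. The soft peak overlapped the peaks of all 4 stiff lists at 237 members, of 3 at 12 members, of 2 at 1 member and of 1 at 1 member, and the distance between the soft summit and the stiff summits had a median of 55 bp and ran up to 1276 bp. At 215 members none of the 3 other soft libraries had any peak within 1 kb of the start, at 17 members 1 had one, at 12 members 2 and at 7 members all 3. Of the 174 protein-coding members, 94 had no other promoter region of the gene and 27 (15.5%) had one with a peak in all 8 lists. Besides CDC42 and TPM4, the 27 included RAB3D, MRPS22, CAMTA1, SHF and FAM120AOS. A like count took only the protein-coding gene nearest to each region. By it the share was 14.4% at members, 9.80% at regions with 0 soft peaks, 10.9% with 2 and 9.84% with 3.

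The distance limit cut through a continuous range. Just inside 1 kb were MKNK2, a kinase downstream of MAP kinases, with its centre 996 bp from a start, and 2 genes without a symbol at 969 and 992 bp. Just outside were NPR2, a natriuretic peptide receptor, at 1006 bp, INPP5B, an inositol phosphatase, at 1009 bp, and the pseudogene RNA5SP137 at 1017 bp. At MKNK2 the percentiles were 3.49 to 22.0 in the stiff lists and 21.4 in D4 soft replicate 2, and at NPR2 they were 9.13 to 51.9 and 52.1 in D4 soft replicate 1. At the other 2 inside they were 55.01 to 73.2 and 6.46 to 28.9 in the stiff lists, and at INPP5B and RNA5SP137 they were 18.8 to 42.9 and 0.456 to 15.5.

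Members were poorer in CpG dinucleotides than promoters open in all 8 lists. CpG content is given as the observed number over that expected from the C and G content within 100 bp of the summit of the best-ranked stiff peak. Its median was 0.638 at members against 0.809 at promoter regions in all 8 lists, and it exceeded 0.6 at 131 members (52.2%) against 76.6%. The shares over the gradient were 58.0% with 0 soft peaks, 60.2% with 2 and 71.2% with 3, so the members had the lowest share of the 5 classes. The 69 regions with 0 soft peaks were close to them, with a lower quartile of 0.246 against 0.247 at members. Low CpG content is therefore not read as particular to the members. The median GC content was 62.2% at members and 65.2% in all 8 lists. By soft library, the median CpG ratio was 0.669 for the 96 members of D2 soft replicate 2, 0.660 for the 112 of D4 soft replicate 1 and 0.437 for the 40 of D4 soft replicate 2.

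Motifs were counted by exact match on both strands in the same window, and none of the strings searched contains another. The AP-1 motif (TGACTCA or TGAGTCA), bound by FOS and JUN dimers, occurred at 33 members (13.1%), beside 10.2% of all 16884 promoter regions in at least 2 lists and 7.73% of those in all 8. The TEAD motif (GGAATG) occurred at 36 members (14.3%), beside 10.01% and 9.14%. The motifs of broadly active promoters were fewer at members, with the ETS motif (CCGGAAG) at 4.38% beside 10.99% and 14.4%, the GC box (GGGCGG) at 42.6% beside 50.2% and 56.1%, and the CCAAT box (CCAAT) at 21.9% beside 26.8% and 31.6%. The cyclic AMP response element (TGACGTCA) occurred at 3 members, the NRF1 motif (CGCATGCG) at 6 and the TATA box (TATAAA) at 8, which were 1.20%, 2.39% and 3.19% beside 1.74%, 1.91% and 3.13% of the promoter regions in at least 2 lists.

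**Figure D5:**
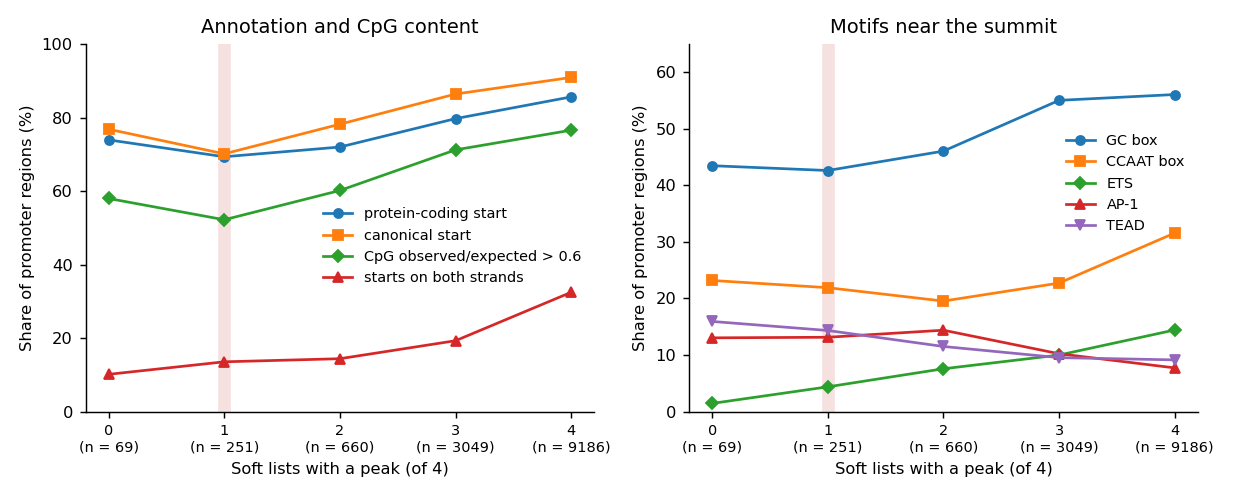
Share of promoter regions (y axis, percent) with each annotation or CpG property (left) and each motif within 100 bp of the stiff summit (right), by the number of soft lists with a peak (x axis, number of regions in parentheses), for regions with a peak in all 4 stiff lists. The members are shaded, and the ETS share runs from 1.45% with 0 soft peaks to 14.4% with 4.

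In the AP-1 and TEAD motifs the classes with 0 and 2 soft peaks were close to the members. AP-1 was at 13.0% of the 69 regions with 0 soft peaks and 14.4% of the 660 with 2, and TEAD at 15.9% and 11.5%. The ETS motif was at 1.45% and 7.58% of these classes, on either side of the members, and no motif share is read as particular to the members. Among the named genes the AP-1 motif was near the summit at ITGA5, MYL2, LSMEM1, EPS8L3, CPA6 and KCND1, and the TEAD motif at TNS3, TMEM200A, NPRL3, KMT2C, BMERB1 and EPS8L3.

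Day was the one contrast that the rule did not use, since it asked for a peak in all 4 stiff lists. D4 stiff was compared with D2 stiff by limma on rank scores, the within-library ranks of fold enrichment turned into standard normal values over the 43488 regions with a peak in all 4 stiff lists. Neither day was called higher at any member, with 0 of 251 at an adjusted p under 0.05, and the background was 0% of all regions. At an unadjusted p under 0.05 there were 22 members (8.76%), beside 6.77% of all regions. Of these, 8 members (3.19%, background 3.86%) were higher and 14 (5.58%, background 2.91%) lower on day 4. By rank score, the libraries of the 2 days did not overlap at 39 members higher on day 4 (15.5%, background 17.4%) and 50 lower (19.9%, background 19.7%). The median standard error was 0.45 in rank score, with 2 libraries a group.

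The members with the lowest p-values were lower on day 4. TLK2, a kinase of chromatin assembly, had percentiles of 66.2 and 61.4 in D2 stiff and 9.74 and 21.4 in D4 stiff, a difference in rank score of -1.84 ± 0.43 (SE) with an adjusted p of 0.615 by limma. MYL2, the regulatory light chain of cardiac myosin, had 83.4 and 68.3 in D2 stiff and 34.9 and 27.6 in D4 stiff, a difference of -1.63 ± 0.44 (SE) with an adjusted p of 0.663 by limma. The days did not overlap at either gene, but neither passed the test over all regions. The MYL2 summit held 35 and 42 fragments in D2 stiff, 38 and 29 in D4 stiff and 29 in D4 soft replicate 1, where its percentile was 60.3.

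DUSP13, a dual-specificity phosphatase, had 31.5 and 68.9 in D2 stiff and 7.28 and 14.4 in D4 stiff, with a rank score difference of -1.69 ± 0.46 (SE). MRPS22, a mitochondrial ribosomal protein, had 63.2 and 58.0 against 9.04 and 43.0, and EPS8L3, related to the actin regulator EPS8, had 30.8 and 53.4 against 2.81 and 35.0. At EPS8L3 the days overlapped by percentile but not by rank score, with -0.93 and -0.30 in D2 stiff against -2.57 and -1.10 in D4 stiff. In the other direction, RAB3D, a GTPase of secretory vesicles, had 32.6 and 16.9 in D2 stiff and 62.4 and 85.0 in D4 stiff, with a rank score difference of 1.51 ± 0.46 (SE) and an adjusted p of 0.666 by limma.

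TMEM150C, a membrane protein, had 0.785 and 23.7 in D2 stiff and 41.2 and 58.2 in D4 stiff, the largest positive difference of any member at 1.58 ± 0.51 (SE). ACBD3, a Golgi scaffold protein, had 49.4 and 15.3 in D2 stiff against 71.6 and 67.3 in D4 stiff. CAMTA1, a calmodulin-binding transcription activator, had 15.9 and 49.95 against 61.5 and 63.6, and BMERB1 had 7.89 and 20.9 against 69.5 and 26.9. By percentile the days did not overlap at any of these genes, yet the values of the D2 replicates of TMEM150C, ACBD3 and CAMTA1 lay far apart. By rank score the days overlapped at BMERB1, with -1.94 and -1.36 in D2 stiff against 0.135 and -1.41 in D4 stiff. The median difference was -0.07 over the members and -0.02 over all regions, with 112 members above 0 and 139 below.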

How the data were processed

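The deposited peak lists of 8 ATAC-seq libraries of LX-2 cells (2 per group) were analysed. The submitters' processing notes name Trim Galore, Bowtie2 2.4.1, bedtools 2.24.0, Picard and MACS2, and the authors called peaks per library on hg19 at q up to 0.05. MACS2 options, read filters and treatment of Tn5 offsets are not given in the sources used here. The deposited fold enrichment is a ratio of summit pileup to local background within 1 library. For each peak the authors also deposited −log10 p and −log10 q against that background. The score column deposited by the authors was not used. Peak names inside some lists carry other replicate numbers than the labels, and the labels were followed.

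Peaks overlapping by at least 1 bp were merged, and starts were those of GENCODE release 44 basic transcripts on GRCh37 (110162 positions, Python 3.11.15 with pandas and pysam). The plan spoke of all annotated transcripts, which give 336 members, and the basic set was chosen later to match an earlier treatment of these data. For a library with several peaks in a region the best-ranked peak was used. Summit pileup and depth were estimated from fold enrichment and p under the MACS2 model, since read totals were not used here, and serve only to compare libraries. Regions with peaks in all 4 stiff lists were fitted with limma 3.58.1 (R 4.3.3) on rank scores with Benjamini-Hochberg adjustment, and the fit was tested on simulated data. In these data, which held counting noise only, it called 3 of 100 regions with a 2-fold change and 81 of 100 with a 4-fold change. The changed regions were drawn at random from all regions fitted. Most members had weaker peaks than these, so the shares do not hold for the members. Changes of about 2-fold between days would thus mostly be missed. A permutation of 2 against 2 libraries cannot give p below 0.333.

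The members and gene lists were chosen with earlier results of these data known. Genes were named by rule among members with a protein-coding start: the 10 highest mean stiff percentiles, the 3 highest soft percentiles per soft library, the 5 largest leads and lags of the soft peak, listed genes, the 5 lowest p-values per direction of the day fit, and the regions nearest the 1 kb limit. Alternatives covered q, list length, overlap, window, annotation, ranking measure, replicate block and each library left out. The count of 1 gene list and 1 sequence are not reported here.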

Additional observations from a re-analysis of the deposited data

Results flagged for a closer look

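Over 9 measures of the members in the 4 stiff or the 4 soft libraries, 1 library stood apart by Dixon's criterion, which marks about 1 in 20 groups by chance. The median summit pileup of member peaks was 5 fragments in D2 soft replicate 1, against 10, 11 and 10 in the other soft libraries, with a gap of 0.833 of the range, just over the limit for 4 samples. The value rests on 3 members and on the library with the lowest estimated depth.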

How the results depend on the processing

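With lists of equal length the counts were 59 members and 45 of the opposite pattern, with 11, 22, 9 and 17 soft peaks in D2 soft replicates 1 and 2 and D4 soft replicates 1 and 2. Equal lists without D2 soft replicate 1, chosen after seeing the data, gave 158 and 75, with 59 and 26 in the D4 soft replicates. Half-covered regions gave 5 of the opposite pattern, 8 in D2 soft replicate 1 and 69 in D4 soft replicate 2. A window of 500 bp gave 1 in D2 soft replicate 1, and one of 2 kb gave 2 of the opposite pattern, 6 in D2 soft replicate 1 and 68 in D4 soft replicate 2. Protein-coding starts gave 61 in D2 soft replicate 2 and 26 in D4 soft replicate 2, and starts of all transcripts, also chosen after seeing the data, gave 5 in D2 soft replicate 1 and 68 in D4 soft replicate 2. Leaving out 1 library at a time gave 273 to 667 members and 0 to 30 of the opposite pattern, with 4 to 13, 106 to 432, 121 to 450 and 45 to 222 in the soft libraries in the order above. Each of these settings changes the rule, the lists or the window itself.

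In the day fit 0 members were called under any setting, and leaving out 1 stiff library, with the lone library assumed to vary like the others, called 0 to 16 regions higher and 0 to 1 lower on day 4 over all regions. The replicate block called 4 regions higher on day 4 and 0 members. Replicate differences of the 2 days correlated at 0.00894 over regions, and the main fit used no pairing. Whether libraries of the same replicate number were prepared together is not given by the labels. Member percentiles moved by less than the spread between libraries when peaks were ranked by p or the widest peak was taken. Read counts at the members were not analysed here, so a missing soft peak is known only as a missed threshold, and the part of depth in it was not tested.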
